A study of Arabidopsis thaliana with 11 samples.

Results

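The microRNA (miRNA) gene loci of Arabidopsis thaliana were taken as all genes of type miRNA in the annotation of the nuclear genome, 326 of 37899 genes, in 215 families by name. Each locus was scored over a window from 1 kb upstream of the gene start to the gene end, and counted as called in a list when at least 1 bp of a listed region lay in that window. The choice of loci used no measured value. The loci were 59 to 689 bp long, with a median of 144.5 bp, so the upstream sequence makes up most of each window.

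The study mapped by chromatin immunoprecipitation and sequencing where ACD15, ACD21 and MBD6 sit in inflorescence chromatin. MBD6 carries a methyl-CG-binding domain, while ACD15 and ACD21 each carry the alpha-crystallin domain of small heat shock proteins. The 11 libraries form 6 groups, all of ecotype Col0 and grown on soil under long days. An ACD15.5-3XFLAG and an ACD21.4-3XFLAG transgene were each carried by wild-type plants (2 libraries each), and an MBD6-RFP transgene by wild-type plants (2 libraries) and by acd15 acd21 mutants (2 libraries). No list of the 3 control libraries without a transgene was used here, and no background level can be given from them. FLAG libraries were all of batch 1 and RFP libraries all of batch 2, so tag, protein and batch cannot be told apart. The labels name the anti-FLAG M2 antibody for both batches although titles of batch 2 name RFP, and neither the plants behind each replicate nor the promoter of a transgene is stated in them. Peak lists hold no expression, so the labelled tissue was not checked against markers. They also hold no read depth, and a locus absent from a list is one that was not called.

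Each of the 8 immunoprecipitated libraries has its own peak list, and 3 merged lists give the regions of ACD15, of ACD21 and of MBD5/MBD6. The lists held 5661 and 10946 regions for ACD15 replicates 1 and 2, and 6774 and 3571 for ACD21. The MBD6-RFP lists held 3492 and 1244 regions for wild type, then 3987 and 404 for the acd15 acd21 mutant. The lowest -log10 q was between 2.0 and 2.1 in the FLAG lists and between 1.32 and 1.46 in the RFP lists, so the thresholds of the calls differed. The fold and the -log10 q of a peak are the peak's own values as the authors deposited them. Both serve here to describe and rank peaks within a list, and the percentile of a peak is its rank by -log10 q in its own list, with 100 at the top.

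A plant miRNA gene is transcribed by RNA polymerase II into a transcript that folds into a hairpin, from which Dicer-like enzymes cut a short duplex. One strand, the mature miRNA, enters an Argonaute protein and guides it to messenger RNAs that pair with it, with the seed near its 5′ end contributing strongly to pairing. Old families, shared among land plants, control development and nutrient responses, while many young loci arose from inverted duplications or transposons and belong to Arabidopsis or its close relatives.

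The mature sequences of the loci on which the results turn are given here 5′ to 3′, read from the TAIR10.1 reference at the positions of its annotation, with the seed (bases 2 to 8) in capitals. miR5653, miR161.1 and miR426 come from the loci of highest rank in the FLAG libraries, miR404 from a locus with its summits in the hairpin gene, miR8167 and miR5635 from families whose copies were all called in an ACD15 library, miR396a-5p and miR165b from conserved families called in all 4 FLAG libraries, and miR168a-5p from a locus called in 1 mutant library alone.
miR5653 (chr1:19026915-19026938, minus strand): uGGGUUGAguugaguugaguuggc
miR161.1 (chr1:17825731-17825751, plus strand): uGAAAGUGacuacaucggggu
miR404 (chr1:11230574-11230597, minus strand): aUUAACGCuggcgguugcggcagc
miR426 (chr1:22107359-22107379, plus strand): uUUUGGAAauuuguccuuacg
miR8167a (chr2:8894985-8895006, plus strand): aGAUGUGGagaucguggggaug
miR5635a (chr5:6926272-6926292, plus strand): uGUUAAGGaguguuaacggug
miR396a-5p (chr2:4142443-4142463, minus strand): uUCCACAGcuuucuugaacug
miR165b (chr4:369856-369876, minus strand): uCGGACCAggcuucauccccc
miR168a-5p (chr4:10578652-10578672, plus strand): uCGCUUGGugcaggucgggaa

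The chromatin regions were centred on other bases than these in most cases. The 121 bp around the summit of 6 loci are given next on the strand of the miRNA gene, with each CG in capitals, since CG is the dinucleotide whose methylated form a methyl-CG-binding domain is known to bind. Methylation itself was not measured in the files used here. The first 5 summits are those of ACD15 replicate 1 and the last is that of MBD6-RFP in acd15 acd21 replicate 1.
MIR5653 (chr1:19027380-19027500, minus strand, 11 CG): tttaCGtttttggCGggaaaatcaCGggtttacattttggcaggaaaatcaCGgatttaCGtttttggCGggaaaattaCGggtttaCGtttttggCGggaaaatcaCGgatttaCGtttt
MIR426 (chr1:22105822-22105942, plus strand, 12 CG): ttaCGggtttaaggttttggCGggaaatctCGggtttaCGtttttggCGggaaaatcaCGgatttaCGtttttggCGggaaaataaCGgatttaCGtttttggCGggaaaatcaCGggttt
MIR161 (chr1:17825194-17825314, plus strand, 10 CG): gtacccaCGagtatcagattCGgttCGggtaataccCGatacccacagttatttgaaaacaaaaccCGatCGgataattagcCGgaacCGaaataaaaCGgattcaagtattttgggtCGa
MIR404 (chr1:11230488-11230608, minus strand, 15 CG): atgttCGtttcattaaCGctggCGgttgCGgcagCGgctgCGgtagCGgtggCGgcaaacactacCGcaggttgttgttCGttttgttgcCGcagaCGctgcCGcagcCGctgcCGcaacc
MIR4245 (chr5:21161761-21161881, plus strand, 0 CG): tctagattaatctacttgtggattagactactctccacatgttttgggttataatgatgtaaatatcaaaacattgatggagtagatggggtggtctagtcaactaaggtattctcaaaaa
MIR168a (chr4:10578623-10578743, plus strand, 7 CG): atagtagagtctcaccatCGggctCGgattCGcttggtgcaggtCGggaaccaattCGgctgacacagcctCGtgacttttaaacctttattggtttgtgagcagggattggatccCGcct
The summit windows of MIR404 and MIR168a hold the mature miRNA itself, while those of MIR5653, MIR426 and MIR161 lie upstream of the hairpin.

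In windows that end with the gene, the ACD15 and ACD21 lists called miRNA loci at about the rate of genes in general. In windows of one fixed reach the ACD15 share was above that of genes in general by more than its counting error, and the ACD21 share was not. That error treats loci as independent, although copies of a family share sequence. Among them, all 6 MIR8167 and all 4 MIR5635 loci held an ACD15 region in windows that end with the gene. In ACD15 replicate 1, 49 of the 326 loci (15.0%) were called, against 12.2% of all nuclear genes. In ACD15 replicate 2 the count was 75 loci (23.0%), against 21.8%. ACD21 replicate 1 gave 40 loci (12.3%), against 14.0% of all genes, and ACD21 replicate 2 gave 24 loci (7.36%), against 7.88%. The larger list of each protein called more loci, and the share of loci stood within a factor of 1.23 of the share of all genes in each of the 4 libraries. In the merged lists, ACD15 regions lay at 75 loci (23.0%) against 22.1% of all genes, ACD21 regions at 40 (12.3%) against 14.0%, and MBD5/MBD6 regions at 86 (26.4%) against 29.5%. The exact 95% Clopper-Pearson intervals over loci for these 3 shares, which cover counting error alone, ran from 18.5% to 28.0%, from 8.91% to 16.3% and from 21.7% to 31.5%, and each holds the share of all genes. These shares moved with annotation, a split made after seeing the data. ACD15 regions lay at 21 of the 179 loci with a TAIR cross-reference (11.7%, 7.41% to 17.4%), an interval below the 22.1% of all genes. At the 147 loci without one the share was 36.7% (28.9% to 45.1%), above it. For MBD5/MBD6 they were 16.8% (11.6% to 23.1%) and 38.1% (30.2% to 46.5%), against 29.5%. Both ACD21 intervals hold 14.0%. The window of fixed reach was not split this way.

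Windows that reach the gene end are longer for long genes, so the same count was made from 1 kb upstream to 200 bp downstream of the start. There ACD15 regions lay at 23.0% of miRNA loci against 17.8% of all genes, ACD21 regions at 12.9% against 10.9%, and MBD5/MBD6 regions at 26.1% against 22.6%. The exact 95% interval for ACD15, 18.5% to 28.0%, lay above the share of all genes, while those for ACD21, 9.45% to 17.0%, and MBD5/MBD6, 21.4% to 31.2%, hold it. Protein-coding genes lay at 15.8%, 9.77% and 18.5% in these lists, and pseudogenes, which hold transposon genes in this annotation, at 31.4%, 18.4% and 47.6%. The miRNA loci were thus between protein-coding genes and pseudogenes in each merged list of that window. Short tRNA genes lay lower, at 10.2%, 4.64% and 19.8%. By library, ACD15 replicates 1 and 2 called 15.3% and 23.0% of miRNA loci in this window, against 10.1% and 17.6% of all genes, with intervals of 11.6% to 19.7% and 18.5% to 28.0% that lie above them. The ACD21 replicates called 12.6% and 7.67%, against 10.9% and 6.35%, with intervals of 9.18% to 16.7% and 5.02% to 11.1% that hold them. The share of miRNA loci was thus above that of all genes in each of the 4 FLAG libraries here, while ACD21 stood below it in the windows to the gene end. These intervals treat loci as independent, although copies of a family share sequence. Whether the ACD15 interval would stay above the share of all genes without such copies was not tested.

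**Figure D1:**
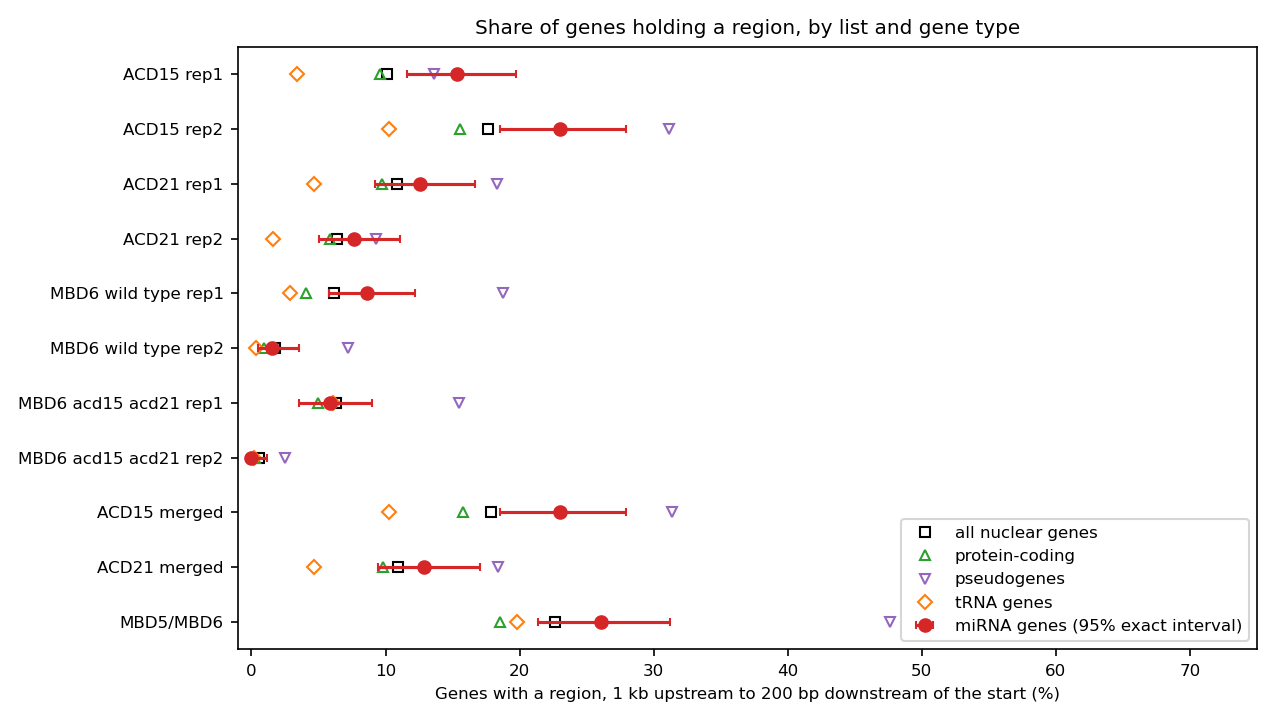
Percentage of genes with a region between 1 kb upstream and 200 bp downstream of the start, for each of the 11 lists. Red points are the 326 miRNA genes with the exact 95% interval over loci, and open symbols are all nuclear genes, protein-coding genes, pseudogenes and tRNA genes; miRNA loci lie at 23.0% for merged ACD15, between the 15.8% of protein-coding genes and the 31.4% of pseudogenes.

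Within each protein the smaller FLAG list called a subset of the miRNA loci of the larger one, as it nearly did for all genes. Of 4633 genes called in ACD15 replicate 1, 4502 were called in both replicates, and of 2986 called in ACD21 replicate 2, 2958 were. All 49 loci of ACD15 replicate 1 were also called in replicate 2 (15.0% of loci called in both, against 11.9% of all genes), and the 24 loci of ACD21 replicate 2 were all called in replicate 1 (7.36%, against 7.80%). Each of the 40 ACD21 loci was also an ACD15 locus, while over all genes 96.7% of the genes with an ACD21 region held an ACD15 region. All 4 FLAG libraries called 23 loci (7.06%, against 7.13% of all genes), 14 loci were called in every FLAG library but ACD21 replicate 2, 12 in both ACD15 libraries alone, and 23 in ACD15 replicate 2 alone, the longest list. Another 2 loci were called in ACD15 replicate 2 and ACD21 replicate 1, and 1 in those libraries and ACD21 replicate 2. The other 251 loci were called in no FLAG library. Apart from all 4 libraries, the shares of all genes with these patterns were not computed, so the counts are not read as particular to miRNA loci. Regions of all 3 merged lists lay at 38 loci (11.7%, against 13.4% of all genes).

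Nearly all of the regions at miRNA loci touched an MBD5/MBD6 region, as they did in the genome at large. Of 85 distinct ACD15 regions at the loci, 80 (94.1%) overlapped an MBD5/MBD6 region, against 94.1% of all 11101 ACD15 regions. For ACD21 the figures were 40 of 44 regions (90.9%) against 97.7% of all 6803. The loci with an ACD15 region but no MBD5/MBD6 region in the window were MIR426, MIR5646 and MIR5651, and none of their ACD15 regions touched an MBD5/MBD6 region at any point.

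Between the proteins, the count of loci did not separate beyond what 2 libraries a group can show. On the log2(loci + 1) scale the 2 ACD15 libraries averaged 5.95 ± 0.43 (SD, n = 2) and the ACD21 libraries 5.00 ± 0.50 (n = 2), a difference of -0.95. The groups did not overlap, and the two-sided exact permutation p was 0.33, the smallest that 2 against 2 libraries allow. Relative to the share of all genes, ACD15 libraries called miRNA loci at a ratio of 1.23 and 1.06, and ACD21 libraries at 0.879 and 0.934. That difference of -0.24 in the mean ratio had the same exact permutation p of 0.33. In the window of fixed reach the ratios were 1.52 and 1.30 against 1.16 and 1.21, a difference of -0.23 with the same p.

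The loci of highest rank in the FLAG libraries were MIR426, MIR5653 and MIR161. MIR426 (AT1G60025, chr1:22107346-22107456) had the highest mean percentile, 97.5, with folds of 5.08 and 8.41 in the ACD15 libraries and 9.29 and 6.99 in the ACD21 libraries. Its summit lay 1411 to 1464 bp upstream of the gene start, outside the window, and the broad peak, 1599 to 2088 bp wide, reached into it. No MBD6-RFP library called it.

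MIR5653 (AT1G07727, chr1:19026915-19027000) came next at a mean percentile of 95.1, and it was the one locus called in 7 of the 8 libraries. In the ACD15 libraries its folds were 4.20 and 7.57, and in the ACD21 libraries 9.0 and 6.22. The wild-type MBD6-RFP libraries gave 27.4 and 16.1, acd15 acd21 replicate 1 gave 21.7, and the locus was not called in acd15 acd21 replicate 2. The 7 summits stood within 24 bp of each other, 426 to 450 bp upstream of the gene start, in sequence annotated as no gene. In the wild-type and mutant replicate 1 lists this peak stood at percentiles 99.7 and 99.1. Only 43.1% of the 31-mers of the MIR5653 window occur once in the genome, so reads from near-identical copies could share its signal.

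The summit sequences of MIR5653 and MIR426 share a long run. Of 42 bases and found after the sequences were seen, it is printed here in the orientation of both genes, with CG in capitals.
Shared run of MIR5653 and MIR426: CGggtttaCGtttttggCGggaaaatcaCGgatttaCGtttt
It occurs 7 times in the nuclear genome, both strands counted, and in 1 or 2 summit windows of each of the 4 FLAG lists, at most 0.0560% of a list. Apart from this pair, no pair among the 8 summit sequences compared shared more than 8 bases in a row. From 1 kb upstream to 200 bp downstream of the start, 3 of all 37899 genes (0.00792%) hold the run.

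MIR161 (AT1G48267, chr1:17825685-17825857), whose miRNAs are known to target pentatricopeptide repeat genes, had folds of 5.03 and 7.54 in the ACD15 libraries and 6.83 and 4.52 in the ACD21 libraries. MBD6-RFP wild-type replicate 1 gave a fold of 14.9 there, at percentile 93.5, and the other 3 RFP libraries did not call it. The FLAG summits lay 420 to 443 bp upstream and the RFP summit 369 bp upstream, each with 9 to 11 CG in 121 bp.

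MIR5660, MIR8172, MIR8171, MIR5641 and MIR404 followed, with mean FLAG percentiles from 92.5 down to 90.9. MIR5641 (AT5G04145) had folds of 4.21 and 7.23 in the ACD15 libraries, 5.63 and 4.12 in the ACD21 libraries, 25.7 in MBD6-RFP wild-type replicate 1 and 7.63 in acd15 acd21 replicate 1. Its summits lay 133 to 239 bp upstream of the start. MIR8172 was called in all 4 FLAG libraries with summits 908 to 922 bp past the start, beyond the gene end, so that peak lies downstream of the hairpin.

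At 4 of the top loci the summit stood in the hairpin gene itself in FLAG libraries, though at MIR5651 not in all of them. MIR404 (AT1G31358, chr1:11230463-11230612) had folds of 3.94, 7.49, 5.65 and 4.36 in the ACD15 and ACD21 replicates and 5.17 in MBD6-RFP wild-type replicate 2, with summits 61 to 78 bp past the start in all 5 lists. Each of these summit windows held 15 or 16 CG. MIR8171 had FLAG folds of 4.71, 7.21, 5.31 and 4.10 with summits 97 to 109 bp past the start. MIR5644 had FLAG folds of 3.74, 6.40, 5.29 and 3.64 with summits 16 to 42 bp past the start. MIR5651, whose gene lies over RDUF1, had hairpin summits with folds of 5.08 and 8.16 in the ACD15 libraries and 3.96 in ACD21 replicate 2. In ACD21 replicate 1 the only peak in the window was another one, with its summit 1003 bp upstream. The FLAG calls of this locus are thus not all of the same peak. In MBD6-RFP wild-type replicate 1 the higher-ranked of 2 peaks had its summit 1098 bp upstream.

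**Figure D2:**
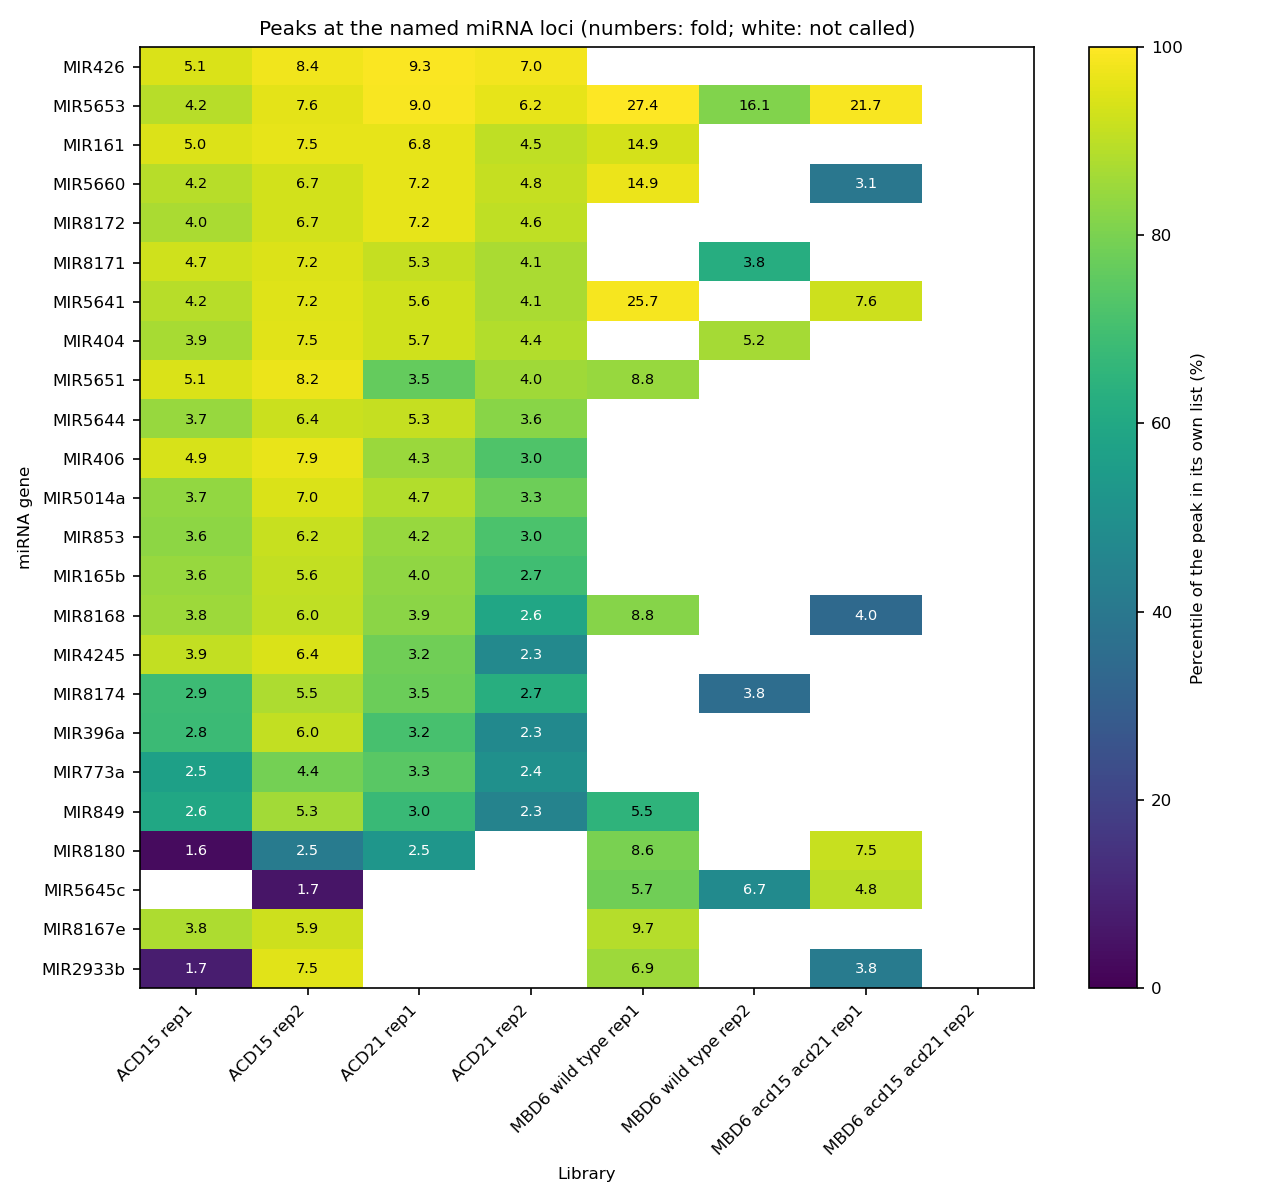
Peaks at the 24 named miRNA loci (vertical axis) in each of the 8 libraries (horizontal axis), where the colour is the percentile of the peak in its own list, the number is its fold, and white means not called. The upper loci are called in all 4 FLAG columns, MIR5653 fills 7 columns, and the acd15 acd21 replicate 2 column is empty.

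The remaining named loci were lower in rank and more varied in place. MIR406 had summits 149 to 180 bp upstream with FLAG folds of 4.91, 7.91, 4.27 and 3.03, and MIR853 had summits 870 to 887 bp upstream with FLAG folds of 3.58, 6.15, 4.16 and 2.97. MIR5014a lies in GAD2, a glutamate decarboxylase gene, and its summits lay 219 to 257 bp past the miRNA start inside that gene. MIR4245 lies in AT5G52070, which also held its summits, and the 121 bp at the ACD15 replicate 1 summit contain no CG, unlike 44 of the 49 loci called in that library. MIR773a, whose miRNA is known to target a DNA methyltransferase gene, had FLAG folds of 2.53, 4.41, 3.32 and 2.38 and a summit 1134 to 1168 bp upstream.

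Peaks at miRNA loci were scattered along the window. In ACD15 replicate 1, 9 of 49 summits stood in the hairpin gene, 23 in the kilobase upstream, 5 beyond it and 12 past the gene end. In ACD15 replicate 2 the counts were 17, 31, 8 and 19 of 75, and the median summit lay 61 bp upstream. The median summit lay 435 bp upstream in ACD21 replicate 1, 458 bp upstream in MBD6-RFP wild-type replicate 1 and 506.5 bp upstream in acd15 acd21 replicate 1, with wide scatter in each.

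**Figure D3:**
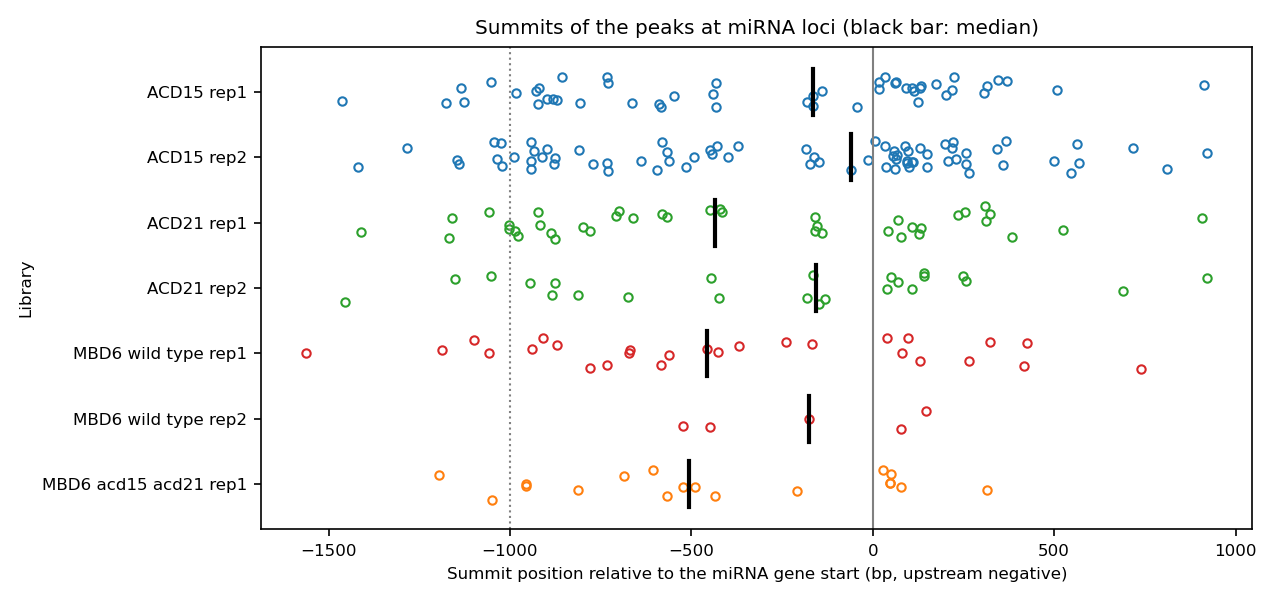
Position of the summit of the top peak at each called miRNA locus relative to the gene start in bp, with upstream negative, for the 7 libraries that called any locus; points are loci, moved up or down at random for display, black bars are medians, the solid line is the start and the dotted line the window's upstream edge. Summits spread from more than 1 kb upstream to past the gene end, with medians between 61 and 506.5 bp upstream.

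Within their lists the peaks at miRNA loci ranked somewhat above the middle in 6 of the 7 libraries with calls. The top peak per locus had a median percentile of 56.7 and 65.5 in the ACD15 libraries, 68.3 and 72.1 in the ACD21 libraries, and 65.6 and 62.4 in the wild-type MBD6-RFP libraries. It was 38.5 in acd15 acd21 replicate 1, where 6 of 18 peaks stood above the median of the list, against 18 of 27 in wild-type replicate 1. A locus with several peaks is represented by its highest, which raises these percentiles.

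CG content differed modestly with the calls. The median CG count per 100 bp of window was 2.23 in the 75 loci with an ACD15 region and 2.02 in the 251 without, and 2.31 and 2.02 for ACD21. It was 2.58 in the 27 loci called in MBD6-RFP wild-type replicate 1 and 2.00 in the rest, and 3.39 in the 18 loci of acd15 acd21 replicate 1 and 2.02 in the rest. The 121 bp at the summit held a median of 4 CG in both ACD15 libraries, 5.5 and 6 in the ACD21 libraries, 7 and 11 in the wild-type MBD6-RFP libraries and 8 in acd15 acd21 replicate 1. The medians over all peaks of these lists were 4, 5, 6, 6, 6, 11 and 7, so the loci resemble the lists they come from. Windows of called loci also had fewer protein-coding starts within 50 kb, a median of 22 with an ACD15 region and 26 without.

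ACD15 and MBD5/MBD6 regions lay at a smaller share of the loci in conserved miRNA families than of the other loci, while the ACD21 intervals of these classes overlap. Of 96 loci in a fixed list of conserved miRNA families, not all of them shared by all land plants, 6 (6.25%, exact 95% interval 2.33% to 13.1%) held an ACD15 region, against 69 of the 230 other loci (30.0%, 24.2% to 36.4%). For ACD21 it was 6 (6.25%, 2.33% to 13.1%) against 34 (14.8%, 10.5% to 20.0%), and for MBD5/MBD6 9 (9.38%, 4.38% to 17.0%) against 77 (33.5%, 27.4% to 40.0%). Of all genes, 22.1%, 14.0% and 29.5% held a region of these lists. MBD6-RFP wild-type replicate 1 called 0 of the 96, with an exact interval up to 3.77% (a limit of 3 loci gives 3.12%), and 27 of the 230 (11.7%, 7.88% to 16.6%), against 8.38% of all genes. In acd15 acd21 replicate 1 the counts were 2 of 96 (2.08%, 0.253% to 7.32%) and 16 of 230 (6.96%, 4.03% to 11.1%), with overlapping intervals. These intervals treat loci as independent, although copies of a family share sequence, and no test was made between the classes. The difference moved with how a locus is annotated: of 85 other loci with a TAIR cross-reference, 16 (18.8%, 11.2% to 28.8%) held an ACD15 region, an interval that overlaps that of conserved families, and of the 147 loci of any family without one, 54 (36.7%) did. Of these 85 loci, acd15 acd21 replicate 1 called 1 (1.18%), a smaller share than of conserved loci. The part of the annotation in the difference between families was not tested.

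**Figure D4:**
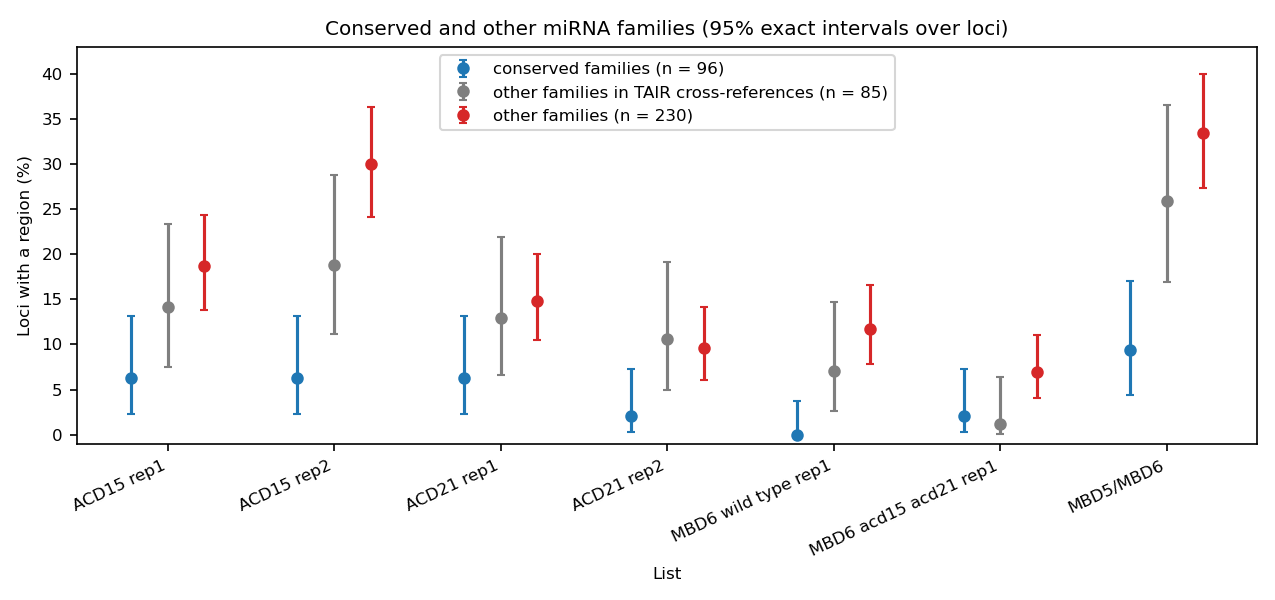
Percentage of loci with a region (vertical axis) in 7 lists (horizontal axis) for the 96 loci of conserved families, the 230 loci of other families, and the 85 of those 230 that have a TAIR cross-reference, with exact 95% intervals over loci. Conserved families lie lowest for merged MBD5/MBD6 at 9.38%, against 25.9% and 33.5% for the other classes.

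The large conserved families had few calls or none in the merged lists. Each is too small for its count to be read against the share of all genes. Those shares were 22.1%, 14.0% and 29.5% in the merged ACD15, ACD21 and MBD5/MBD6 lists. Sharing a seed, the 10 miR169 loci with AGCCAAG, the 6 miR399 loci, the 6 miR395 loci and the 5 miR172 loci held no region of any merged list. These families act on transcription factors of the NF-YA class, on phosphate and sulfate homeostasis and on AP2-type floral regulators. Of 11 loci with the miR156 seed, whose targets are SPL transcription factors, MIR156i had regions of ACD15 and of ACD21, and 3 loci had one of MBD5/MBD6. The 9 loci with the miR165/166 seed, which target class III HD-ZIP genes, had 1 call in each of those merged lists, MIR165b.

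Of the conserved loci, 6 were called in both ACD15 replicates, MIR156i, MIR165b, MIR396a, MIR396b, MIR397a and MIR403. MIR165b had FLAG folds of 3.57, 5.55, 3.98 and 2.73 with summits 799 to 813 bp upstream, while MIR165a, with an identical mature sequence, was not called in any list. MIR396a, whose miRNA targets growth-regulating factor genes, had folds of 2.84, 6.03, 3.15 and 2.33 and summits 1045 to 1057 bp upstream. Its copy MIR396b had folds of 2.12 and 4.04 for ACD15 and 2.62 for ACD21 replicate 1, with summits 733 to 780 bp upstream. MIR397a, whose miRNA targets laccase genes, was a downstream call: its summit lay in ENT6, a nucleoside transporter gene, and the ACD15 region overlapped the window by 96 bases. MIR156i overlaps SPL4, and MIR403, whose miRNA targets AGO2, had ACD15 folds of 1.67 and 2.40.

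Among young families with many copies, MIR8167 and MIR5635 were called throughout in ACD15. Both families were named after their values were seen. Of 5 MIR5645 loci that share a seed, by contrast, 2 held an ACD15 region, and MIR5645c, which has another seed, held one too. All 6 MIR8167 loci held regions of ACD15 and MBD5/MBD6, and none of ACD21, against 22.1%, 29.5% and 14.0% of all genes. In ACD15 replicate 2 their folds were 2.06, 2.38, 3.24, 4.92, 5.91 and 2.64 for MIR8167a to MIR8167f, and replicate 1 called MIR8167b, MIR8167c and MIR8167e at 1.80, 1.96 and 3.78. The 6 copies encode the same mature sequence, and the share of their window 31-mers found once in the genome was 75.2%, 0%, 34.2%, 42.7%, 1.05% and 14.2%. Where a peak's reads came from among such copies is therefore uncertain, and the peaks are not 6 independent observations.

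All 4 MIR5635 loci were called in ACD15 replicate 2, which called 21.8% of all genes. Their folds were low, 2.56, 2.48, 1.91 and 1.83 for MIR5635a to MIR5635d, and every one of these summits stood in the hairpin gene. MIR5635a was also called in ACD21 replicate 1 at 2.11, and MIR5635a and MIR5635b in MBD6-RFP wild-type replicate 1 at 3.48 and 6.46. ACD15 replicate 1 called no MIR5635 locus.

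The 9 loci of families known to derive from transposons, miR405, miR854 and miR855, were called in part. ACD15 regions lay at 4 of them (44.4%, exact 95% interval 13.7% to 78.8%), ACD21 at 1 (11.1%, 0.281% to 48.2%) and MBD5/MBD6 at 5 (55.6%, 21.2% to 86.3%), and each interval holds the share of all genes, 22.1%, 14.0% and 29.5%. MIR405a had ACD15 folds of 2.58 and 4.69 and an MBD6-RFP wild-type replicate 1 fold of 7.30, and MIR405b an ACD15 replicate 2 fold of 3.19 with ACD21 folds of 3.06 and 2.51; MIR405d held an MBD5/MBD6 region alone. MIR854a and MIR854e were called in ACD15 replicate 2 at 1.44 and 1.61, and MIR854d and MIR854e in MBD6-RFP wild-type replicate 1 at 3.67 and 3.18, with summits in annotated pseudogenes. MIR854e was also called in acd15 acd21 replicate 1 at 3.52. MIR854b, MIR854c and MIR855 were called in no library. In a split of all members that was not planned, 10 of the 20 loci with under 50% unique 31-mers (exact 95% interval 27.2% to 72.8%) held an ACD15 region. Of the other 306 loci, 65 (21.2%, 16.8% to 26.3%) did. For ACD21 the counts were 2 of 20 (10.0%, 1.23% to 31.7%) and 38 of 306 (12.4%, 8.94% to 16.6%). The intervals treat loci as independent, although copies of MIR8167 are among the 20.

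MBD6-RFP was called at few miRNA loci, with replicates far apart. In wild type, replicate 1 called 27 loci (8.28%), against 8.38% of all genes, and replicate 2 called 5 (1.53%), against 2.46%. In acd15 acd21, replicate 1 called 18 loci (5.52%), against 10.4%, and replicate 2 called 0, against 1.02%. The exact 95% interval for 0 of 326 reaches 1.13% and so holds the share of all genes, while a limit of 3 loci gives 0.920%. In the window to 200 bp past the start, wild-type replicates called 8.59% and 1.53% of miRNA loci, against 6.17% and 1.77% of all genes, and mutant replicates 5.83% and 0%, against 6.31% and 0.546%. The gap between miRNA loci and all genes in mutant replicate 1 was much narrower there. In all, 35 loci (10.7%) were called in an RFP library, against 16.0% of all genes, and 83 (25.5%) in at least 1 of the 8 libraries, against 29.6%.

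The genotypes could not be separated with 2 libraries each. The mean log2(loci + 1) was 3.70 ± 1.57 (SD, n = 2) in wild type and 2.12 ± 3.00 (n = 2) in acd15 acd21. The difference of -1.57 was within the spread of the replicates, the groups overlapped, and the two-sided exact permutation p was 0.667. The share of loci over the share of all genes was 0.988 and 0.624 in the wild-type libraries and 0.529 and 0 in the mutant libraries. These did not overlap, with a difference of -0.54 in the means and an exact permutation p of 0.33, the smallest this design allows. In the window to 200 bp past the start the ratios were 1.39 and 0.869 in wild type and 0.923 and 0 in the mutant, which overlap, with a difference of -0.67 and an exact permutation p of 0.667. Wild-type replicate 1 and mutant replicate 1 carry nearly all of the calls, so which loci differ rests on 1 library per genotype.

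In the replicate 1 libraries, 13 loci were called in both genotypes (3.99%, against 4.59% of all genes), and their peaks overlapped at each of the 13. They include MIR5653, MIR5641, MIR5660, MIR8180, MIR8168, MIR5645c and MIR2933b. MIR8180 had folds of 8.63 in wild type and 7.46 in the mutant with summits 97 and 79 bp past the start, in the hairpin gene. MIR5645c was called in 3 RFP libraries, at 5.74 and 6.72 in wild type and 4.76 in the mutant, with summits 458 to 522 bp upstream and 9 to 11 CG in the summit window. MIR4239 and MIR1887 are neighbours that share a peak.

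Another 14 loci were called in wild-type replicate 1 and not in mutant replicate 1 (4.29%, against 3.79% of all genes, or 3.10% in the window to 200 bp past the start, where the count was 14 as well). MIR161 with a fold of 14.9, MIR8167e with 9.72 and MIR5651 with 8.78 are among them. Wild-type replicate 2 called MIR404, MIR5653, MIR8171, MIR5645c and MIR8174, of which MIR5653 and MIR5645c were also called in replicate 1. All 5 held an ACD15 and an MBD5/MBD6 region. The shares of all genes called in that library that held them were not computed. In wild-type replicate 1 these were 73.4% and 87.7%, so 5 loci are too few to be read.

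In the other direction, 5 loci were called in mutant replicate 1 and not in wild-type replicate 1 (1.53%, against 5.84% of all genes, or 3.24% in the window to 200 bp past the start, where the count was also 5). They were MIR168a, MIR168b, MIR781a, MIR5022 and MIR4227, and the last 2 share a peak in HAP13. No merged list had a region at any of the 5, while for ACD15, ACD21 and MBD5/MBD6 20.8%, 12.8% and 30.3% of all genes called in that way did. The 5 loci, of which 2 share a peak, are too few to be read against these shares. The folds of the 5 loci were 4.04 at MIR168a, 3.37 at MIR168b, 3.08 at MIR781a and 4.15 at the shared peak, at percentiles from 11.2 to 37.3 of the list. The MIR168a summit stood in the hairpin gene 48 bp past the start, and the others in protein-coding genes upstream of the miRNA gene. miR168 is known to target AGO1. Mutant replicate 2 called none of these loci.

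Of the loci called in wild-type replicate 1, 24 of 27 (88.9%) held an ACD15 region, against 73.4% of all genes called there, and 24 (88.9%) an MBD5/MBD6 region, against 87.7%. Of those called in mutant replicate 1, 11 of 18 (61.1%) held an ACD15 region, against 42.0% of all genes called there, and 12 (66.7%) an MBD5/MBD6 region, against 55.0%. These shares were lower in the mutant library than in the wild-type one both for miRNA loci and for all genes, a difference between single libraries that was not tested.

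**Figure D5:**
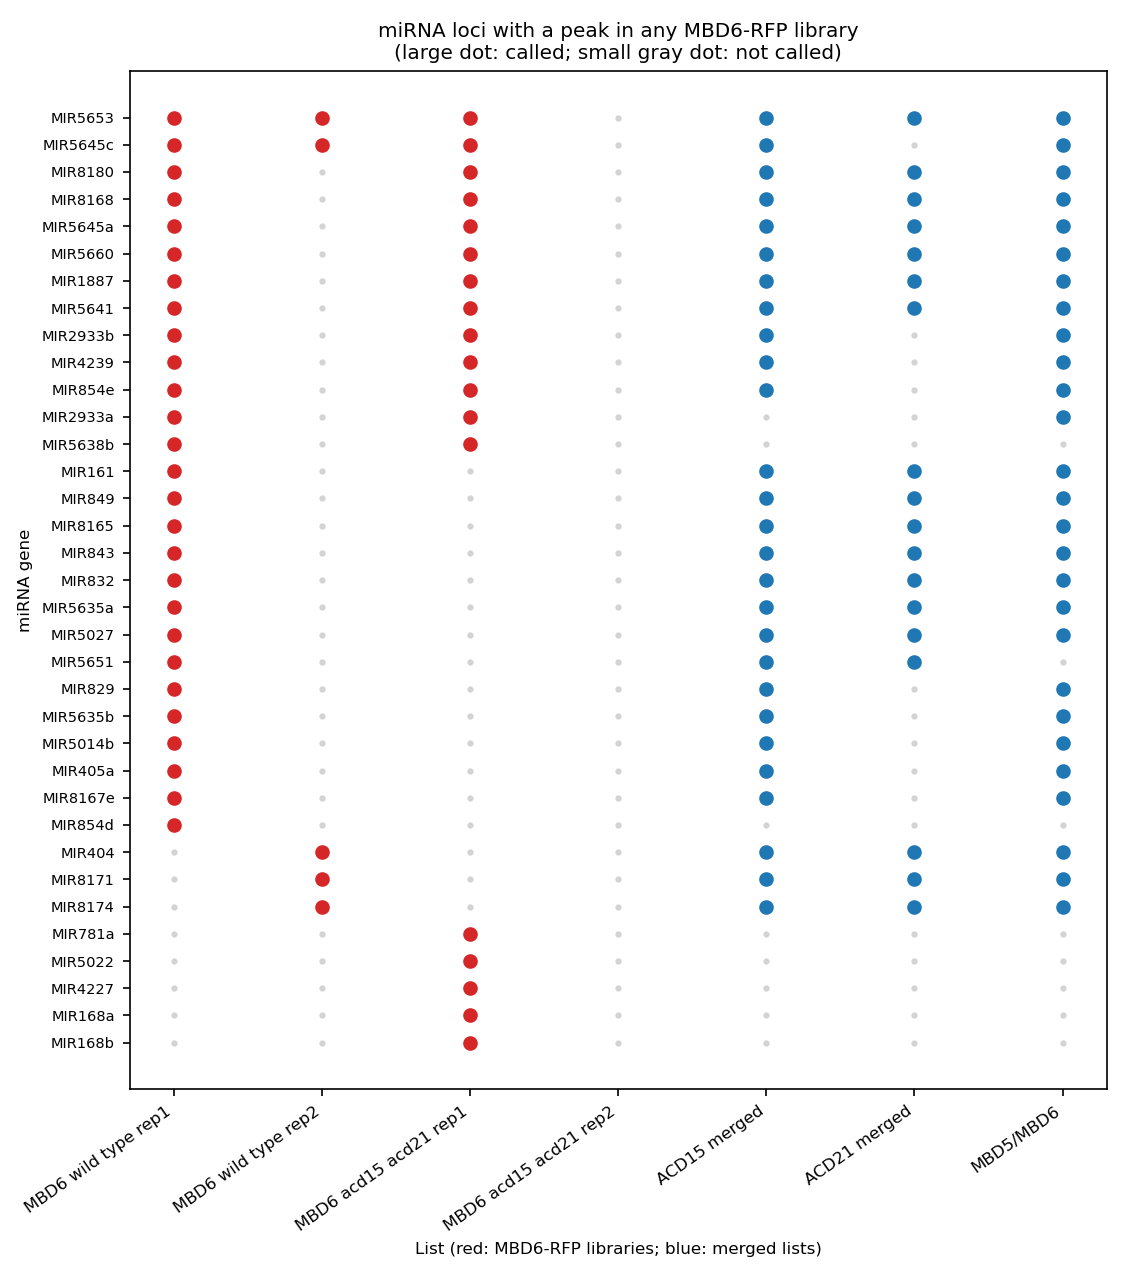
The 35 miRNA loci with a peak in any MBD6-RFP library (vertical axis), with a large dot in each list (horizontal axis) that called the locus; red dots are the 4 MBD6-RFP libraries and blue dots the 3 merged lists. The 13 loci shared by the replicate 1 libraries stand at the top, and the 5 called in acd15 acd21 replicate 1 alone stand at the bottom with no blue dot.

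Genes that make or use miRNAs were scored in the same way. Of 23 genes for miRNA and trans-acting siRNA (tasiRNA) production, ACD15 regions lay at 7 (30.4%), ACD21 regions at 5 (21.7%) and MBD5/MBD6 regions at 10 (43.5%), against 22.1%, 14.0% and 29.5% of all genes. All 4 FLAG libraries called 4 of them (17.4%, against 7.13%). No interval was computed for these shares, and 23 genes are too few for them to be read against those of all genes. ABH1, the large subunit of the nuclear cap-binding complex, had folds of 4.32, 7.07, 4.55 and 2.88 with summits 79 to 92 bp upstream, and it was the one gene of the list called in MBD6-RFP wild-type replicate 1, at 4.27. AGO10, the Argonaute that sequesters miR165 and miR166, had FLAG folds of 3.02, 5.87, 3.30 and 2.48 with summits 416 to 424 bp upstream. SQN, a cyclophilin that promotes AGO1 activity, had FLAG folds of 2.93, 5.35, 3.45 and 2.38, and CPL1, a phosphatase that acts on the processing cofactor HYL1, had 2.07, 3.52, 2.06 and 1.84. CBP20, the small cap-binding subunit, and DCL4, the Dicer of tasiRNAs, were called in both ACD15 libraries, at folds of 2.77 and 3.97 and of 1.80 and 2.43. DCL1, the Dicer that cuts miRNA hairpins, held an MBD5/MBD6 region and was called in no library.

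Mutant replicate 1 called 6 of the 23 genes (26.1%), against 10.4% of all genes and 8.92% of protein-coding genes. They were HEN1, HST, AGO1, TGH, SGS3 and DRB4. HEN1 methylates small RNA ends, HST is the homologue of exportin-5, AGO1 is the main miRNA effector, TGH is a processing cofactor, and SGS3 and DRB4 act in tasiRNA production. Their folds were 4.07, 3.37, 2.68, 3.77, 4.75 and 2.65. All summits but that of DRB4 stood 1899 to 5789 bp past the gene start, in windows far longer than those of miRNA loci. Peaks at those summits fall outside the window to 200 bp past the start, in which mutant replicate 1 called 6.31% of all genes. The 23 genes were not counted in that window, so the 26.1% cannot be read as holding there, and no interval was computed for it. No wild-type MBD6-RFP library and no mutant replicate 2 call lay at any of the 6, and in the merged ACD15 and ACD21 lists HEN1 alone had a region, of ACD15.

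Of the 8 TAS loci, whose transcripts are cut by miRNAs and turned into tasiRNAs, ACD15 regions lay at 5, ACD21 regions at 3 and MBD5/MBD6 regions at 5. Of all genes 22.1%, 14.0% and 29.5% held one, and 8 loci, of which several are related in sequence, are too few to be read against these shares. No MBD6-RFP library called one. TAS3C had FLAG folds of 3.06, 5.77, 2.69 and 2.12 with summits 799 to 822 bp upstream, and was the one TAS locus in all 4 FLAG libraries. TAS1B and TAS3 were called in both ACD15 libraries and in ACD21 replicate 1, with summits 499 to 515 and 688 to 720 bp past the start, so those peaks sat in or past the transcript and not upstream of it. TAS1A and TAS1C were called in ACD15 replicate 2 alone, at folds of 2.19 and 1.93, and they are related to TAS1B in sequence, so reads may be shared.

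The edge of the window decided a few calls. The smallest overlaps of an ACD15 region with the window were 18 bases at MIR4239, 96 at MIR397a and 111 at MIR8169. Just outside, the nearest upstream ACD15 regions ended 1036 bases from the start of MIR868, 1049 from MIR826a and 1059 from MIR8177. By chromosome, ACD15 regions lay at 18.0%, 18.2%, 30.0%, 27.3% and 24.7% of the loci of chromosomes 1 to 5, with 50 to 89 loci each and exact intervals that all overlap.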

How the data were processed

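The submitters' processing notes name the TAIR10 genome and MACS2 2.1.0, deepTools 3.0.2, HOMER, Picard, Bowtie2 and Trim Galore, without their roles. The authors deposited a peak list per library, called on single libraries, with a fold enrichment (a ratio), a score and -log10 of p and q for each peak. List names say that control peaks were taken out of the FLAG lists and regions prone to unspecific enrichment out of the RFP lists. The merged lists were deposited by the authors as regions without values used here.

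Entries with the same start and end were joined, keeping the highest -log10 q. Genes came from the TAIR10.1 annotation, which is larger than the original TAIR10 gene set: 179 of the 326 loci have a TAIR cross-reference. No region ended beyond its chromosome. Overlap needed 1 bp. Mature sequences and summit windows were read from TAIR10.1; 166 of 169 sequences in the annotation's notes matched. Shares have exact 95% Clopper-Pearson intervals, and a count of 0 an upper limit of 3 loci; both cover counting error only, and with no depth in the lists no other precision can be given. Library counts were compared by two-sided exact permutation. P-values measure the spread between libraries, which may be technical. Loci were named by rule: of those in all 4 FLAG libraries the 20 highest by mean percentile, and of those in any RFP library the 10 highest, with the members of the gene lists called in both replicates of a group and every transposon-derived locus. Others named here were chosen after their values were seen. The loci and lists were chosen with earlier results of these data known. Python 3.11.15, numpy 2.4.6, pandas 2.3.3, scipy 1.17.1 and matplotlib 3.10.9 were used, and the overlap code was tested on simulated data.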

Additional observations from a re-analysis of the deposited data

How the results depend on the processing

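Of 86 alternative values, 55 moved by less than the interval or kept their direction and 31 moved. For the changes of window length, fold, rank and summit given next, the shares of all genes were not computed. Those values describe miRNA loci alone and cannot be read against the shares of all genes in the main window. Longer windows gave equal or higher shares and shorter windows equal or lower ones: with 2 kb upstream the merged ACD15 share rose to 29.8%, MBD5/MBD6 to 33.4%, ACD15 replicate 2 to 29.8% and acd15 acd21 replicate 1 to 8.59%, and with 500 bp ACD21 merged fell to 8.90%, ACD15 replicate 1 to 10.7% and ACD21 replicate 1 to 8.59%. The gene body alone gave 15.0%, 6.75% and 16.9% in the merged ACD15, ACD21 and MBD5/MBD6 lists, 8.90%, 15.0%, 6.44% and 3.99% in the ACD15 and ACD21 libraries, 4.91% in MBD6-RFP wild-type replicate 1 and 2.45% in acd15 acd21 replicate 1. A fold of at least 3 left 5.52%, 14.1%, 6.44% and 3.68% in the FLAG libraries. Peaks above the list's median left 7.98% and 15.0% in the ACD15 libraries, 5.52% in wild-type replicate 1 and 1.84% in acd15 acd21 replicate 1. A summit in the window left 10.1%, 16.6% and 8.59% in ACD15 replicates 1 and 2 and ACD21 replicate 1. Loci with a TAIR cross-reference, an alternative chosen after seeing the data, gave 11.7% for ACD15 and 16.8% for MBD5/MBD6, below the 22.1% and 29.5% of all genes. The ratios in the window to 200 bp past the start were also added after seeing the data.

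To leave out a replicate, the list of the other replicate took the place of the merged list, which was not rebuilt. The shares were 15.0% to 23.0% for ACD15, lowest without replicate 2, and 7.36% to 12.3% for ACD21, lowest without replicate 1. They repeat the shares of single libraries given above and are no separate check of the merged lists. The log2 difference ranged from -2.58 to -0.56 for acd15 acd21 minus wild type and from -1.60 to -0.29 for ACD21 minus ACD15, with 1 library a group and no test. The labels do not say that a replicate number marks a shared batch; with the replicate number as a block, the differences stayed at -1.57 and -0.95, and the exact permutation p was 0.5, the smallest that 2 pairs allow. Peak lists hold no depth, so a library with fewer reads and one with less binding cannot be told apart, and a locus not called is not shown to be unbound.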
